A study of Mus musculus with 10 samples.

Results

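The genes encoding the proteins of the cytosolic ribosome were followed in the hearts of 10 mice. They were chosen by symbol: Rpl or Rps with a digit, together with Rpsa, Rplp0, Rplp1 and Rplp2, leaving out S6 kinases, Rps19bp1, names with -ps (processed pseudogenes) and names ending in l and a digit such as Rpl7l1. The choice gave 84 of the 11790 genes in the deposited table, 49 of the large and 35 of the small subunit. Of these, 75 encode the canonical subunits, 3 are expressed paralogues (Rpl3l, Rps27l and Rps27rt) and 6 are annotated as pseudogenes under a plain symbol (Rpl32l, Rpl6l, Rpl37rt, Rps3a2, Rps3a3 and Rps4l).

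The study set hearts of 5 A-PDK1KO mice, which lack 3-phosphoinositide-dependent kinase 1 (PDK1, encoded by Pdpk1) in adipocytes, against hearts of 5 PDK1 flox/flox mice (control). All mice were 10 to 11 weeks old and in the randomly fed state, and the hearts were frozen before RNA-seq. The mouse serves as a model of diabetic heart disease, and the study asked how its heart handles branched-chain amino acids. The sources used here do not name the promoter that drives the recombinase, the sex or a batch.

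The ribosome reads mRNA on its small subunit and joins amino acids on its large subunit, at a centre made of ribosomal RNA. Ribosomal proteins fold and steady that RNA, line the paths of the mRNA and of the growing chain, and recruit factors. Their mRNAs usually begin with a run of pyrimidines, the 5′ terminal oligopyrimidine (TOP) tract, through which mTORC1 and LARP1 control their translation, and in the heart the number of ribosomes bounds how fast muscle protein can be made.

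The start regions of some members are shown here, 5′ to 3′ on the gene's strand (RefSeq, GRCm38.p6). Each runs from 60 bases before to 30 bases after the start of transcription. Whether the motifs go with any difference between the groups was not tested. Capitals mark a run of a C followed by at least 7 C or T within 30 bases of the start, CCGGAAG, or CTCGCGA and its complement TCGCGAG. The first 3 belong to the genes that passed the test. The next 4 carry a pyrimidine run at or near the start. The last 2 carry CCGGAAG.
Rpsa (chr9:120127706-120127795, plus strand): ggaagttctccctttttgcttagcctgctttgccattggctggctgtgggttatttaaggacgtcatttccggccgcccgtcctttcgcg
Rps15 (chr10:80292371-80292460, plus strand): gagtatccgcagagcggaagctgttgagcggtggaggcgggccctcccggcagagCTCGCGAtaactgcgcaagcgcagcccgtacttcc
Rps2 (chr17:24720003-24720092, plus strand): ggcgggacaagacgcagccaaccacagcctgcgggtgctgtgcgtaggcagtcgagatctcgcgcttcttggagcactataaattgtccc
Rpl13 (chr8:123102290-123102379, plus strand): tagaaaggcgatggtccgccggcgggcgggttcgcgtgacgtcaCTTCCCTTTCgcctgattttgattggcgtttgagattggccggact
Rplp2 (chr7:141447591-141447680, plus strand): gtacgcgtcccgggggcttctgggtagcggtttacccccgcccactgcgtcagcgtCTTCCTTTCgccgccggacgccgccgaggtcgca
Rps27 (chr3:90213619-90213708, minus strand): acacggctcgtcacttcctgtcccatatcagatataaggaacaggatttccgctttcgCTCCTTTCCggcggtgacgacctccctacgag
Rps6 (chr4:86857338-86857427, minus strand): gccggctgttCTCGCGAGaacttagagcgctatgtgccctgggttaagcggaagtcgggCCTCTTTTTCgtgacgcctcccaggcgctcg
Rps3a1 (chr3:86142639-86142728, minus strand): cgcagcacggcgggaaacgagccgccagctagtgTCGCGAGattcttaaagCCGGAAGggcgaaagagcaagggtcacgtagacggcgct
Rpl26 (chr11:68901506-68901595, plus strand): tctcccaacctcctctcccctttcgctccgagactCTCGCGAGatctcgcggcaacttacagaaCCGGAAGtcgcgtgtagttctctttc

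A RefSeq window, from 250 bases before to 50 after the start, was found for 60 members and for 27025 genes in all. The pyrimidine run, read on the gene's strand, was present in 32 of the 60 members (53.3%) and in 20.6% of all genes. CCGGAAG or its complement CTTCCGG, the core that ETS factors bind, stood in the window of 24 members (40.0%) against 9.93% of genes. CTCGCGA or its complement TCGCGAG, which overlap where both stand as in Rps6 and Rpl26, was found in 14 members (23.3%) and in 2.22% of genes. TATAA in the 50 bases before the start was about as frequent in members (6.67%) as in all genes (5.89%). The pyrimidine run and CTTCCGG can overlap, since they share CTTCC. Of the genes that passed the test, Rps15 has CTCGCGA in the 90 bases shown, and those of Rpsa and Rps2 hold none of the motifs that capitals mark, the pyrimidine run being sought within 30 bases of the start. Where a gene has several starts, a match in any of its windows was counted.

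The members also shared their gene structure. Small nucleolar RNAs, which guide the modification of ribosomal RNA, lay within the bodies of 30 of the 84 members (35.7%) against 1.72% of all genes tested. The members lay on 19 chromosomes, 4 of them on X, and their exons summed to a median of 1722.5 bases, against 3900 bases over the genes tested. Levels are given in FPKM, fragments per kilobase of exon scaled to library size, a measure per length that can be compared between genes. A member averaged between 0.674 FPKM (Rpl32l) and 851 FPKM (Rplp1) over the 10 hearts, with a median of 87.4 FPKM against 4.41 FPKM over all genes tested. A mean of at least 100 FPKM was reached by 36 members, and 6 were among the 100 genes of highest FPKM.

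Library sizes recovered from the values were 9249256 to 11384423 counted reads per heart. Transcripts of the mitochondrial genome made up 34.3% to 41.5% of reads in A-PDK1KO hearts and 32.7% to 40.4% in control hearts. All 7 cardiomyocyte markers were present, summing to 13464 to 15337 FPKM in A-PDK1KO hearts and 14316 to 16981 FPKM in control hearts, with a median log2 difference of -0.11. Atrial markers (5 of 6 in the table) summed to 188 to 270 FPKM in A-PDK1KO hearts and 215 to 584 FPKM in control hearts. Most of each sum was Nppa, at 139 to 267 FPKM in A-PDK1KO hearts and 214 to 492 FPKM in control hearts. The sum did not follow Myl7: control 1 held 486 FPKM of Nppa and 0 FPKM of Myl7. Erythroid markers summed to 68.6 to 228 FPKM in A-PDK1KO hearts and to 27.9 to 1391 FPKM in control hearts, where control 1 held 1391 and control 2 held 247 FPKM. Endothelial, fibroblast, macrophage and smooth muscle sums overlapped between the groups, 1 of 5 adipocyte markers was in the table (Cfd, at most 1.36 FPKM), and 0 of 6 lymphocyte markers were. No marker of any list passed the test. Pdpk1 averaged 3.46 ± 0.513 FPKM in A-PDK1KO hearts and 3.55 ± 0.256 FPKM in control hearts (SD, n = 5 each; exact two-sided permutation p = 0.714 over 252 splits), which checks nothing, since the deletion is in adipocytes. In a whole heart, fewer cells of a type and less RNA per cell cannot be told apart.

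As a whole, ribosomal protein transcripts took a smaller share of the RNA in A-PDK1KO hearts. They took 1.51%, 1.52%, 1.48%, 1.56% and 1.50% of counted reads in A-PDK1KO hearts 1 to 5, against 1.74%, 1.79%, 1.64%, 1.65% and 1.61% in control hearts 1 to 5. Every A-PDK1KO heart lay below every control heart. The group means were 1.51% ± 0.0295 in A-PDK1KO hearts and 1.69% ± 0.0764 in control hearts (SD, n = 5 each), a 10.2% smaller share. When mitochondrial reads were left out of the total, the groups overlapped, at 2.32% to 2.58% in A-PDK1KO hearts and 2.45% to 2.92% in control hearts, with means of 2.46% and 2.70%.

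Control 1 and control 2 stood highest. The highest value of 76 of the 84 members was in a control heart, and for 62 members it was in control 1 or control 2. The lowest value of 62 members was in an A-PDK1KO heart. The same counts over all genes are not given here, so these counts cannot be read as particular to the members. The share of counted reads, mitochondrial reads included, in controls 3, 4 and 5 was still above that of each A-PDK1KO heart. Without mitochondrial reads controls 3 and 5 stayed above, at 2.64% and 2.65%. Control 4, at 2.45%, then lay below A-PDK1KO 1, 3 and 5, at 2.58%, 2.49% and 2.47%. Control 1 and control 2 were also the hearts with the most erythroid RNA. Control 2 had the highest level of the atrial marker Myl7, at 85.9 FPKM. With an atrial marker as a covariate 3 members were called lower, as without it. The part of erythroid RNA in the result was not tested.

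**Figure D1:**
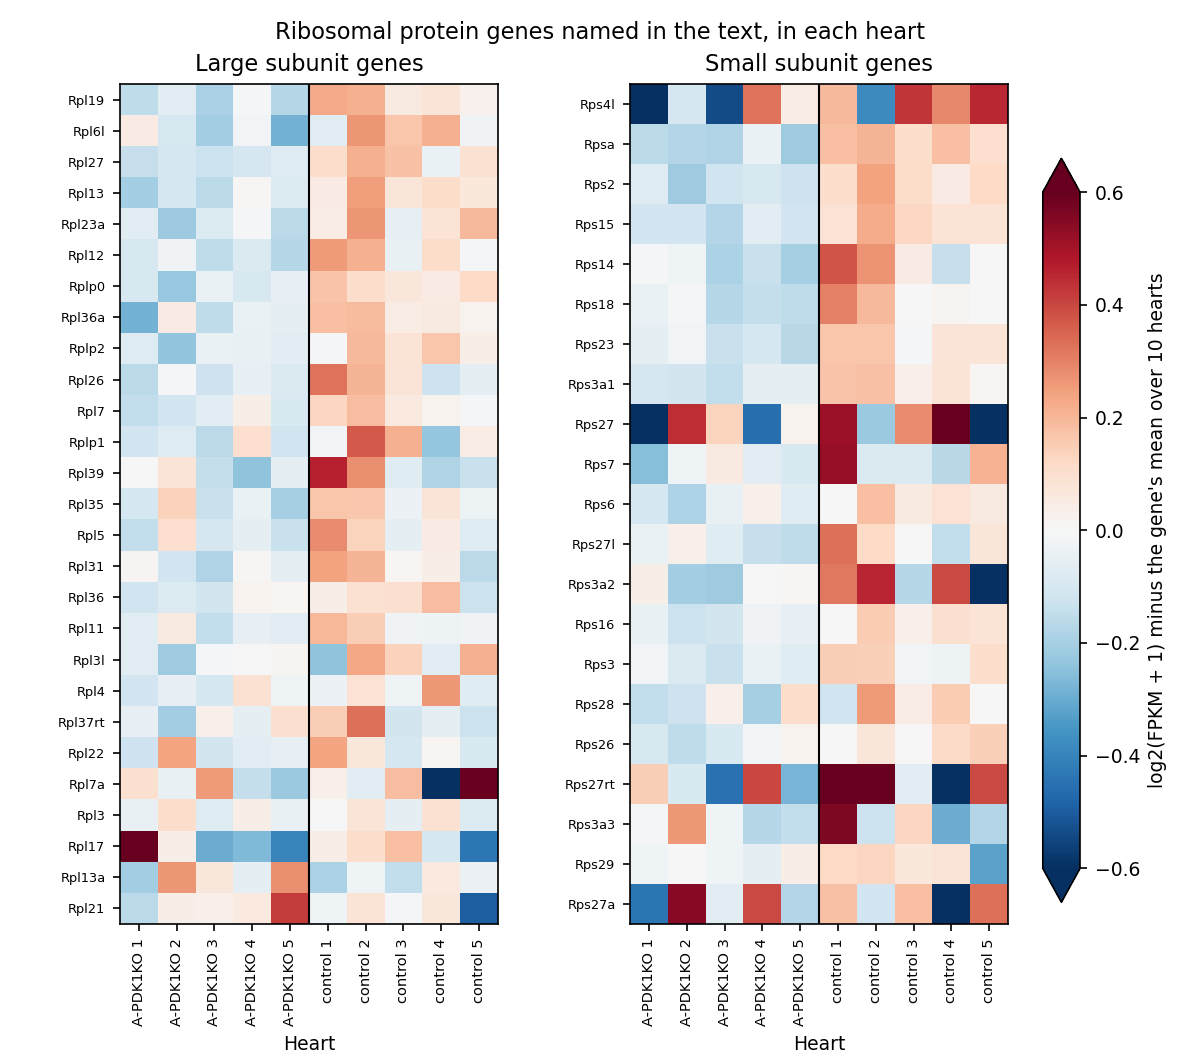
Each row is a tested ribosomal protein gene that is described by name, ordered by its difference between groups, and each column a heart, A-PDK1KO hearts to the left of the line and control hearts to the right; colour is log2(FPKM + 1) minus the gene's mean over 10 hearts, with the scale capped at 0.6 either way. Blue prevails in the A-PDK1KO columns and red in control 1 and control 2. A few genes with near-identical copies (Rps27, Rps27rt, Rps27a, Rpl17, Rpl7a) scatter in both groups.

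Gene by gene, 3 members were lower in A-PDK1KO hearts and 0 were higher at an adjusted p under 0.05 (limma on log2(FPKM + 1), Benjamini-Hochberg over 9987 genes). These 3 of 83 tested members (3.61%) stand beside 87 of 9987 genes called lower (0.871%) and 121 called higher (1.21%), or 208 in either direction (2.08%). With scaling that left out mitochondrial and haemoglobin genes the split over all genes was 94 lower and 220 higher, and 1 member was lower. Called genes were thus few in either set, and the members' difference lay more in its sign and small size. The members were measured in the same hearts, and most share sequence with other genes. They are not independent of each other, so the counts of members below are a description and not a test. The difference was below 0 for 76 of 83 members (91.6%), against 45.4% of all genes. Its median was -0.14 on the log2 scale, with quartiles of -0.19 and -0.11 and a range of -0.39 to 0.15, where all genes had a median of 0.02. At an unadjusted p under 0.05, 38 members (45.8%) were lower and 0 higher, against 7.03% and 8.53% of genes. In 14 members (16.9%) every A-PDK1KO heart lay below every control heart, against 2.23% of genes, and in 0 members every one lay above, against 2.72%.

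Other genes above a floor in level lay closer to the members than all genes did. Over the 1390 other genes at or above a mean of 20 FPKM, the median difference was -0.04 and 64.2% were below 0, against -0.14 and 93.5% for the 77 members at that level. In the same genes the groups did not overlap, with A-PDK1KO hearts lower, for 8.27%, against 18.18% of the members. Calls of lower genes at an adjusted p under 0.05 were about as frequent in these other genes (3.53%) as in the members (3.90%). The share of members called was thus not set apart from that of genes above this floor. Both sets share only the floor and were not matched in level. The floor of 20 FPKM was chosen after the data were seen.

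**Figure D2:**
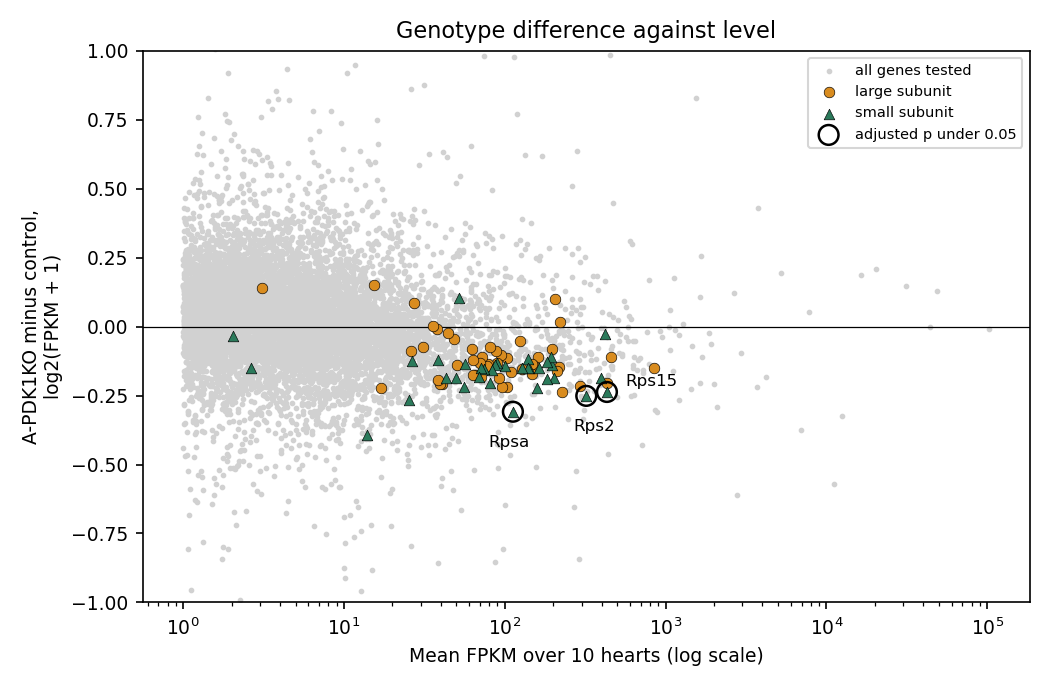
The x axis is the mean FPKM over 10 hearts on a log scale and the y axis the A-PDK1KO minus control difference in log2(FPKM + 1); grey points are the 9987 genes tested, of which 23, none of them a member, lie outside the axis. Members of the large subunit (circles) and small subunit (triangles) mostly lie in a band between -0.25 and 0, and the ringed members passed at an adjusted p under 0.05.

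The count of called members moved with single hearts. It was 0 without A-PDK1KO 5, and 1 without A-PDK1KO 1, A-PDK1KO 3, control 3 or control 5. Calls of lower genes fell over all genes too, from 87 of 9987 to 28 of 9993 without A-PDK1KO 5. They fell to 42, 24, 36 and 49 without A-PDK1KO 1, A-PDK1KO 3, control 3 and control 5. Without control 1 and control 2 together, 0 members and 28 of 10017 genes were called lower. The members' median difference was -0.10 there, beside 0.0054 over all genes. Of the members, 67 of 83 were below 0, and the share of all genes is not given here. Every A-PDK1KO heart then lay below controls 3, 4 and 5 for 18 members (21.7%), against 5.39% of genes tested.

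Genes of both subunits took a smaller share of reads in A-PDK1KO hearts. Large-subunit genes took 0.823% to 0.878% of counted reads in A-PDK1KO hearts, against 0.891% to 0.988% in control hearts. Small-subunit genes took 0.656% to 0.681% in A-PDK1KO hearts, against 0.719% to 0.804% in control hearts. The groups did not overlap for either subunit. These totals include mitochondrial reads, and the share of both subunits together overlapped between the groups when those reads were left out. The large subunit averaged 0.848% ± 0.0198 in A-PDK1KO hearts and 0.932% ± 0.0376 in control hearts. The small subunit averaged 0.667% ± 0.0105 in A-PDK1KO hearts and 0.754% ± 0.0409 in control hearts (SD, n = 5 each).

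All 3 called members were small-subunit genes (8.57% of 35 tested), against 0.871% of all genes called lower. Among the other genes at a mean of at least 20 FPKM, 3.53% were called lower. The median log2 difference was -0.13 over 48 tested large-subunit genes, with 42 below 0 (87.5%) and 5 whose groups did not overlap (10.4%). It was -0.15 over 35 small-subunit genes, with 34 below 0 (97.1%) and 9 whose groups did not overlap (25.7%). Of all genes, 45.4% were below 0 and 2.23% did not overlap in this direction. Of the other genes at a mean of at least 20 FPKM, 64.2% were below 0 and 8.27% did not overlap. The large minus small gap between these medians was 0.02. Per heart, the mean log2 level of large-subunit genes minus that of small-subunit genes was 0.013 to 0.083 in A-PDK1KO hearts and -0.090 to 0.057 in control hearts, with overlapping groups, and was not tested. The ratio of summed FPKM, large over small, was 1.37 ± 0.0115 in A-PDK1KO hearts and 1.33 ± 0.0396 in control hearts (SD, n = 5 each), and the groups overlapped, with control 1 lowest at 1.27.

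**Figure D3:**
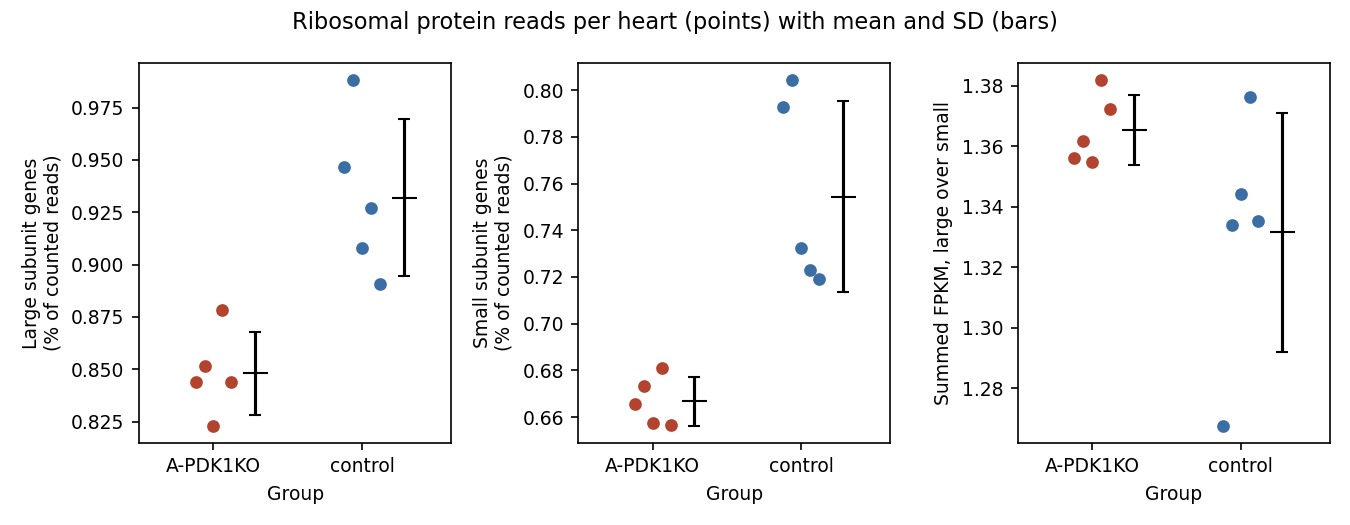
Points are single hearts and bars the mean with SD (n = 5 per group), A-PDK1KO left of control: reads of large-subunit genes and of small-subunit genes as a percent of counted reads, and summed FPKM of large over small. The groups do not overlap in the first 2 panels (0.878% below 0.891%, and 0.681% below 0.719%) and overlap in the ratio. Counted reads include mitochondrial reads, and the share of both subunits together overlapped without them. The y axes do not start at 0.

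Rpsa, also called the laminin receptor precursor, sits on the small subunit near the mRNA exit and had the largest difference of the called members (mm10 chromosome 9, 120127689 to 120132369). It stood at 99.5, 98.6, 98.3, 108 and 96.2 FPKM in A-PDK1KO hearts 1 to 5, against 127, 128, 120.2, 126 and 119.6 FPKM in control hearts 1 to 5. Every A-PDK1KO heart lay below every control heart, with A-PDK1KO 4 nearest to the controls. The means were 100.2 ± 4.73 FPKM in A-PDK1KO hearts and 124 ± 4.07 FPKM in control hearts (SD, n = 5 each), a difference of -0.31 ± 0.05 SE on the log2 scale (limma adjusted p = 0.0133) and a ratio of 0.806. With 1 heart left out at a time the adjusted p ran between 0.0157 and 0.0522, the last without A-PDK1KO 5.

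Rps15, whose tail reaches towards the decoding centre, was also called lower (mm10 chromosome 10, 80292453 to 80294114). It stood at 397, 396, 379.9, 409 and 397 FPKM in A-PDK1KO hearts 1 to 5, against 456, 501, 468, 454 and 455 FPKM in control hearts 1 to 5. The groups did not overlap, and control 2 was highest. The means were 396 ± 10.4 FPKM in A-PDK1KO hearts and 467 ± 19.8 FPKM in control hearts (SD, n = 5 each), a log2 difference of -0.24 ± 0.05 SE (limma adjusted p = 0.0318). The call was lost without A-PDK1KO 1, 3 or 5 or control 2, 3 or 5, where the adjusted p reached 0.0851 at most.

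Rps2, at the mRNA entry of the small subunit, was the other called member (mm10 chromosome 17, 24718116 to 24721929). It stood at 303, 276, 294, 299 and 293 FPKM in A-PDK1KO hearts 1 to 5, against 344, 378, 345, 330.99 and 347 FPKM in control hearts 1 to 5. A-PDK1KO 2 was lowest and control 2 highest, with no overlap. The means were 293 ± 10.4 FPKM in A-PDK1KO hearts and 349 ± 17.3 FPKM in control hearts (SD, n = 5 each), a log2 difference of -0.25 ± 0.05 SE (limma adjusted p = 0.0325). With 1 heart left out the call held only without control 1 or control 4, and the adjusted p reached 0.0839 without A-PDK1KO 5.

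Among the other small-subunit proteins of mRNA entry and decoding, Rps23, which lies at the decoding centre, had 174, 179, 165, 168 and 161 FPKM in A-PDK1KO hearts 1 to 5, against 203, 204, 179.6, 191 and 192 FPKM in control hearts 1 to 5 (log2 difference -0.19 ± 0.05 SE, limma adjusted p = 0.105). The groups just failed to overlap, A-PDK1KO 2 and control 3 lying within 1 FPKM of each other. Rps3, beside the entry channel, had 82.7 ± 2.64 FPKM in A-PDK1KO hearts and 91.4 ± 5.51 FPKM in control hearts (SD, n = 5 each) and overlapping groups. These 4 genes (Rps2, Rps3, Rps23 and Rps15) had a median difference of -0.21, and 3 of them had groups that did not overlap. That was so in 2.23% of all genes and in 8.27% of the other genes at a mean of at least 20 FPKM. Rps2 and Rps15 are called members, so this median and count partly restate their calls. Of Rps14, Rps26 and Rps28, which lie on the mRNA exit side with Rpsa, none had groups apart.

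Rps3a1, on the platform of the small subunit, was the third most abundant small-subunit gene (CCGGAAG stands in its start region above). It stood at 369, 366, 357, 382 and 379.8 FPKM in A-PDK1KO hearts 1 to 5, against 445, 447, 405, 419 and 398 FPKM in control hearts 1 to 5. The groups did not overlap, but the gene missed the threshold (log2 difference -0.19 ± 0.05 SE, limma adjusted p = 0.0952). Rps29, a zinc-binding protein of the small subunit's head, was as abundant and showed no such gap. It stood at 411, 419, 411, 401 and 430.4 FPKM in A-PDK1KO hearts 1 to 5, against 455, 458, 437, 441 and 334.2 FPKM in control hearts 1 to 5. Control 5 was the lowest of all 10 hearts, while the other 4 controls lay above every A-PDK1KO heart (log2 difference -0.03 ± 0.08 SE, limma adjusted p = 0.923).

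Rps18 and Rps16 also had groups apart. Their adjusted p values were 0.180 and 0.196 (limma), so neither passed. Rps6, the protein that S6 kinases phosphorylate, averaged 132 ± 7.20 FPKM in A-PDK1KO hearts and 146 ± 6.94 FPKM in control hearts (SD, n = 5 each), with an adjusted p of 0.215.

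In the large subunit the P stalk, which recruits the elongation factors, was measured through Rplp0, Rplp1, Rplp2 and Rpl12, the protein at its base. All 4 had a difference below 0, with a median of -0.20, and none passed the test. Rplp0 stood at 402, 366, 417, 401 and 414 FPKM in A-PDK1KO hearts 1 to 5, against 483, 461, 449, 444 and 466 FPKM in control hearts 1 to 5. No A-PDK1KO heart reached the lowest control heart (log2 difference -0.20 ± 0.05 SE, limma adjusted p = 0.0714). Rplp1, the most abundant member, stood at 779, 801, 754, 907 and 778 FPKM in A-PDK1KO hearts 1 to 5, against 834, 1089, 978, 719 and 872 FPKM in control hearts 1 to 5. Its control hearts spread widely and held both the lowest and the highest value (adjusted p = 0.520 by limma). Rplp2, whose start region above carries a pyrimidine run, had 77.3 to 88.7 FPKM in A-PDK1KO hearts and 90.5 to 105 FPKM in control hearts, with no overlap and an adjusted p of 0.157.

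Rpl5 and Rpl11, which carry 5S RNA into the large subunit and bind Mdm2 when free of it, had a median difference of -0.12 and overlapping groups. Rpl5 averaged 74.9 ± 5.44 FPKM in A-PDK1KO hearts and 82.5 ± 8.71 FPKM in control hearts, and Rpl11 averaged 69.6 ± 3.56 FPKM in A-PDK1KO hearts and 75.3 ± 5.94 FPKM in control hearts (SD, n = 5 each). Around the exit tunnel, through which the new chain leaves, 8 genes (Rpl4, Rpl17, Rpl39, Rpl19, Rpl23a, Rpl26, Rpl31 and Rpl35) had a median of -0.14. Rpl19 was the only one of them with groups apart. It stood at 203, 215, 197, 224 and 201 FPKM in A-PDK1KO hearts 1 to 5, against 265, 262, 235, 238 and 230.1 FPKM in control hearts 1 to 5 (log2 difference -0.24 ± 0.06 SE, limma adjusted p = 0.0669). Control 1 and control 2 were highest.

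Rpl27 and Rpl13 were the other large-subunit genes with groups apart. Rpl27 stood at 86.3, 88.7, 86.9, 88.6 and 90.1 FPKM in A-PDK1KO hearts 1 to 5, against 102, 111, 108, 92.7 and 102 FPKM in control hearts 1 to 5 (limma adjusted p = 0.0709). Its A-PDK1KO hearts lay within 4 FPKM of each other, and control 4 came closest to them. Rpl13, with a pyrimidine run in its start region, had 89.5 to 104 FPKM in A-PDK1KO hearts and 107 to 123 FPKM in control hearts (limma adjusted p = 0.0910). Rpl36, the second most abundant large-subunit gene, overlapped, with 440.2 ± 20.4 FPKM in A-PDK1KO hearts and 476 ± 37.8 FPKM in control hearts (SD, n = 5 each) and an adjusted p of 0.442.

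**Figure D4:**
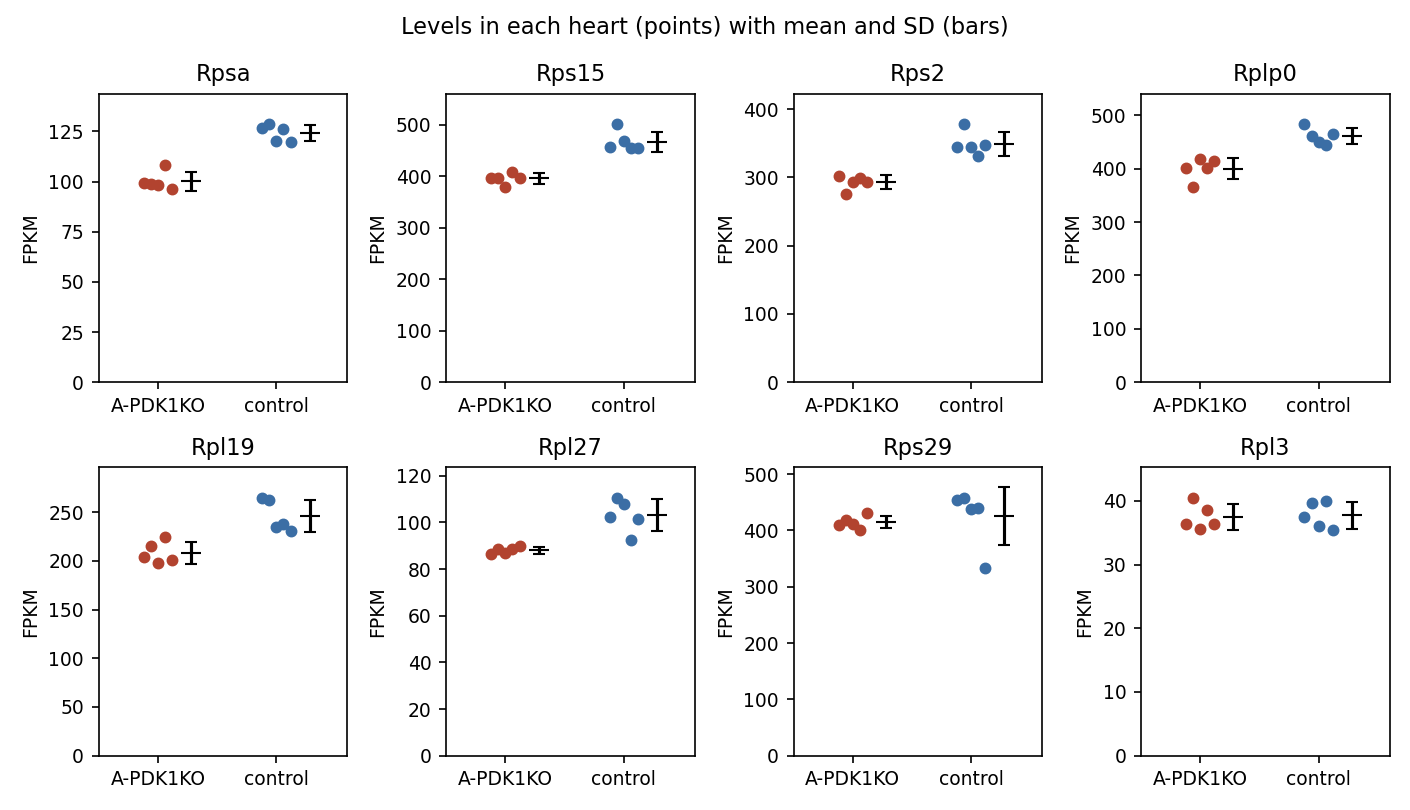
FPKM per heart (points) with mean and SD (bars, n = 5 per group) for 8 members, A-PDK1KO left of control, each y axis starting at 0. Rpsa, Rps15, Rps2, Rplp0, Rpl19 and Rpl27 show groups apart, Rps29 shows control 5 below all other hearts at 334.2 FPKM, and Rpl3 shows no gap.

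Differences above 0 were found for 7 tested members, and none of them came near the threshold. The largest were those of Rpl21 and Rpl13a. Rpl21 stood at 13.5, 15.6, 15.6, 15.9 and 20.7 FPKM in A-PDK1KO hearts 1 to 5, against 14.9, 16.2, 15.1, 16.0 and 10.5 FPKM in control hearts 1 to 5. A single heart at each end, A-PDK1KO 5 and control 5, set the group means apart (log2 difference 0.15 ± 0.12 SE, limma adjusted p = 0.619). Rpl13a, known from human cells for leaving the ribosome to silence inflammatory mRNAs, was listed at only 2.52 to 3.93 FPKM in A-PDK1KO hearts and 2.56 to 3.23 FPKM in control hearts (log2 difference 0.14 ± 0.10 SE, limma adjusted p = 0.582). Of its coding sequence, 97.5% of 50-base words also occur in another annotated gene, so this level is uncertain.

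The same doubt touches most of the family. Over the members a median of 88.1% of the 50-base words of the coding sequence occurred in another annotated gene, and 68 of 84 shared at least 50%. Of the called members, Rpsa and Rps2 were among these 68 and Rps15 was not. Rpl3l shared none. The sources used here give neither the counting of reads with several matches nor the strand setting, so overlapping and antisense genes are uncertain too. The median difference was -0.14 over 15 tested members that shared under 50% and -0.15 over the 68 others. The median level was 150.5 FPKM over 16 members that shared under 50%, 81.2 FPKM over 41 that shared 50% or more but not all, and 78.7 FPKM over 27 that shared all.

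Rps27 and Rps27rt share all of their coding words with other annotated genes. Rps27 is a zinc-finger protein of the small subunit, and Rps27rt is a near-identical copy made from its RNA. Rps27 stood at 42.6, 88.8, 71.4, 47.2 and 66.0 FPKM in A-PDK1KO hearts 1 to 5, against 93.3, 55.6, 79.3, 107 and 36.2 FPKM in control hearts 1 to 5. Rps27rt stood at 202, 170.4, 133, 240.3 and 149 FPKM in A-PDK1KO hearts 1 to 5, against 281, 275, 174, 74.4 and 239.8 FPKM in control hearts 1 to 5. Several hearts high in one were low in the other, most plainly control 4 and control 5. Control 1 went the other way, being high in both (93.3 FPKM of Rps27 and 281 FPKM of Rps27rt). The reads of both together varied less (CV 11.3% in A-PDK1KO hearts and 18.6% in control hearts) than those of Rps27 alone (29.7% and 38.3%) or of Rps27rt alone (24.0% and 41.4%). A sum of genes that vary separately can also vary less than each of them. Whether reads were divided between the copies was not tested. The paralogue Rps27l, which shares 27.1% of its words, was steadier, with 67.0 ± 3.51 FPKM in A-PDK1KO hearts and 74.8 ± 9.31 FPKM in control hearts (SD, n = 5 each).

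**Figure D5:**
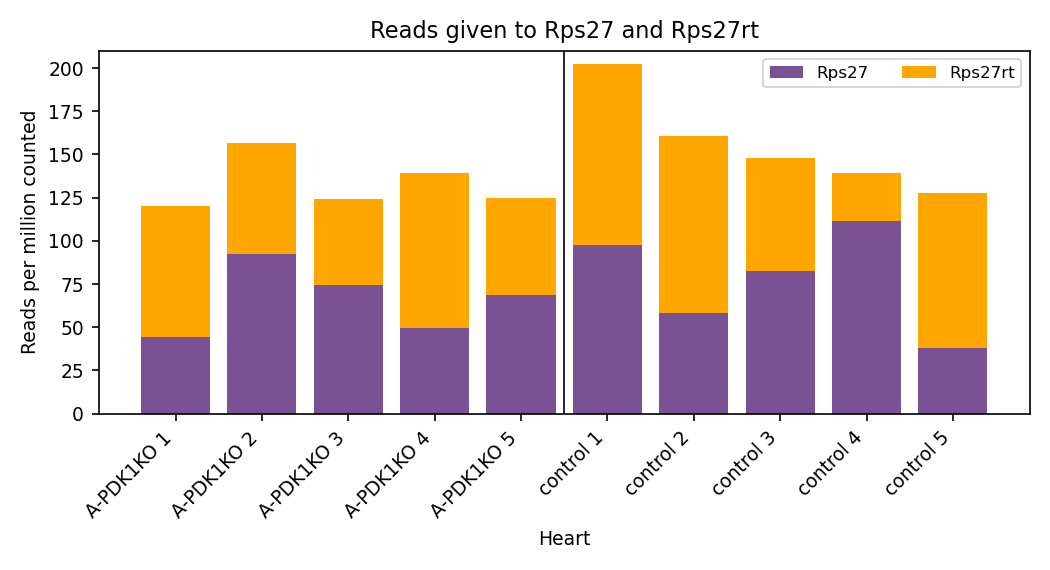
Bars give reads in each heart, scaled to 1000000 counted reads, A-PDK1KO hearts left of the line and control hearts right of it, with Rps27 below and Rps27rt stacked above. The part of each gene differs from heart to heart. The stack runs from 120 to 156 in A-PDK1KO hearts and from 127.5 to 202.5 in control hearts.

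The muscle-specific paralogue Rpl3l replaces Rpl3, a core protein near the peptidyl transferase centre, in ribosomes of heart and skeletal muscle. Rpl3l was the more abundant in every heart. It stood at 152, 138, 158, 159.8 and 162 FPKM in A-PDK1KO hearts 1 to 5, against 135, 188, 176, 152 and 185 FPKM in control hearts 1 to 5. Rpl3 averaged 37.5 ± 2.03 FPKM in A-PDK1KO hearts and 37.7 ± 2.08 FPKM in control hearts (SD, n = 5 each), with a log2 difference of -0.01 ± 0.06 SE and a 95% interval of -0.14 to 0.12. The ratio Rpl3l over Rpl3 was 4.13 ± 0.428 in A-PDK1KO hearts and 4.45 ± 0.7104 in control hearts (SD, n = 5 each), and ran from 3.40 to 5.23 over the 10 hearts. The groups overlapped.

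Ratios of other pairs overlapped between the groups too. Rpl22l1, which can replace Rpl22, stood at 0.294 ± 0.0202 of the FPKM of Rpl22 in A-PDK1KO hearts and at 0.292 ± 0.0597 in control hearts. Rpl7l1, a relative of Rpl7 active in large-subunit assembly, stood at 0.0929 ± 0.00815 of the FPKM of Rpl7 in A-PDK1KO hearts and at 0.0924 ± 0.00673 in control hearts (SD, n = 5 each). Rpl7 itself averaged 120.3 ± 6.003 FPKM in A-PDK1KO hearts and 134 ± 7.37 FPKM in control hearts, and Rpl22 averaged 47.3 ± 5.27 FPKM in A-PDK1KO hearts and 48.8 ± 4.95 FPKM in control hearts. The X-linked genes Rpl36a and Rpl39, which have retrotransposed relatives in mammals, also had overlapping groups. Rpl36a had 31.3 to 39.8 FPKM in A-PDK1KO hearts and 39.0 to 43.9 FPKM in control hearts (limma adjusted p = 0.203), and Rpl39 had 64.7 to 81.0 FPKM in A-PDK1KO hearts and 67.7 to 107 FPKM in control hearts (limma adjusted p = 0.628).

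Pseudogene symbols behaved unevenly. Rps4l, annotated as a pseudogene but sharing only 14.9% of its words, had the most negative difference of all members, at -0.39 ± 0.20 SE. It stood at 7.74, 12.4, 8.93, 17.0 and 13.8 FPKM in A-PDK1KO hearts 1 to 5, against 15.5, 10.0, 18.4, 16.6 and 18.7 FPKM in control hearts 1 to 5. The hearts scattered in both groups, and the gene missed the threshold (limma adjusted p = 0.377). Rpl32l, at 0 to 2.04 FPKM, lay under the level at which genes were tested. Rps3a2 and Rps3a3 rested on as few as 11 reads in a heart. The 66 tested genes with -ps names, which were not among the members, had the same median of -0.14, with 0 called and 51 below 0.

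Ribosomal proteins whose genes fall outside the symbols were looked at for comparison; they were picked outside the rule for named genes. Fau, a fusion of a ubiquitin-like protein and a small-subunit protein, averaged 148 ± 5.996 FPKM in A-PDK1KO hearts and 158 ± 6.99 FPKM in control hearts. Rack1, a scaffold on the small subunit's head, averaged 45.3 ± 1.39 FPKM in A-PDK1KO hearts and 50.6 ± 2.98 FPKM in control hearts (SD, n = 5 each). Rack1 had groups apart, and neither gene passed (adjusted p 0.428 and 0.197 by limma).

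Other TOP mRNAs and ribosome-associated proteins were read from a list of 23 genes. Of 22 tested genes 1 was lower (4.55%, against 0.871% of all genes), 0 were higher and the median was -0.07. Of all genes outside the members at a mean of at least 20 FPKM, 3.53% were called lower. The gene that passed was Tpt1, a TOP mRNA for the translationally controlled tumour protein. It stood at 448, 436, 447, 464 and 482 FPKM in A-PDK1KO hearts 1 to 5, against 562, 544, 525, 541 and 548 FPKM in control hearts 1 to 5. Its groups did not overlap (log2 difference -0.26 ± 0.05 SE, limma adjusted p = 0.0220). The call was lost without A-PDK1KO 1, A-PDK1KO 3 or control 5, where the adjusted p reached 0.0636 at most.

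The genes that make ribosomes had medians nearer to 0 than the members, whose median was -0.14. These lists were not matched to the members in level. Among 38 tested biogenesis factors 0 passed, by limma, and at an unadjusted p under 0.05 there were 3 lower (7.89%) and 1 higher (2.63%), against 7.03% and 8.53% of all genes, with a median of -0.01. Nop2, a methyltransferase of large-subunit RNA, averaged 5.11 ± 0.594 FPKM in A-PDK1KO hearts and 6.13 ± 0.517 FPKM in control hearts, and Bysl, a small-subunit assembly factor, averaged 5.22 ± 0.653 FPKM in A-PDK1KO hearts and 6.62 ± 1.25 FPKM in control hearts (SD, n = 5 each; adjusted p 0.223 and 0.251). Among 20 genes of RNA polymerase I and III transcription the median was -0.08 and 1 passed (5.00%), against 1.21% of all genes called higher. That was Taf1b, a subunit of the selectivity factor of polymerase I, which was higher at 2.34, 2.89, 2.86, 2.95 and 2.98 FPKM in A-PDK1KO hearts 1 to 5, against 1.77, 2.18, 1.98, 1.26 and 1.32 FPKM in control hearts 1 to 5. Its groups did not overlap (log2 difference 0.50 ± 0.11 SE, limma adjusted p = 0.0353). With 1 heart left out the call held only without A-PDK1KO 1 or control 2, and the adjusted p reached 0.0905 without A-PDK1KO 5.

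Among 13 chaperones and importers of ribosomal proteins 0 passed by limma, with 0 lower and 2 higher (15.4%, against 8.53% of all genes) at an unadjusted p under 0.05 and a median of 0.01. Tsr2, the chaperone of Rps26, averaged 2.51 ± 0.299 FPKM in A-PDK1KO hearts and 2.04 ± 0.278 FPKM in control hearts, and the importer Tnpo1 averaged 5.10 ± 0.604 FPKM in A-PDK1KO hearts and 4.32 ± 0.405 FPKM in control hearts (SD, n = 5 each; adjusted p 0.293 and 0.313). Among 19 genes of mTORC1 and the S6 kinases 0 passed, with 0 lower and 2 higher (10.5%, near the 8.53% of all genes) at an unadjusted p under 0.05 and a median of 0.08. Tsc1, an inhibitor of mTORC1, averaged 3.12 ± 0.264 FPKM in A-PDK1KO hearts and 2.58 ± 0.359 FPKM in control hearts, and Rps6ka2, a kinase of the RSK family, averaged 5.78 ± 0.155 FPKM in A-PDK1KO hearts and 5.09 ± 0.403 FPKM in control hearts (SD, n = 5 each; adjusted p 0.288 and 0.296). For Rps6ka2 every A-PDK1KO heart lay above every control heart.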

How the data were processed

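RNA from 10 hearts was sequenced from both ends and its quality was read with FastQC (version 0.11.7), per the labels' protocols. The submitters' processing notes list mm10 as the build, with featureCounts 1.6.3, HISAT2 2.1.0 and Trimmomatic 0.38. The authors deposited FPKM, 1 column per heart, for 11790 genes whose highest value was at least 1.00 FPKM. A column of cluster numbers was not used.

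Here FPKM were turned into whole reads with exon lengths of GENCODE mouse release 21 (Python 3.11.15). For 98.2% of genes every heart's value lay within 0.05 reads of a whole number. Members were drawn by symbol, and coordinates are those of GENCODE in the mm10 build. The 9987 genes averaging 1 FPKM or more (83 members) were fitted on log2(FPKM + 1) with limma 3.58.1 in R 4.3.3, two-sided with an empirical Bayes trend and no covariate, with Benjamini-Hochberg adjustment over these genes and calls at an adjusted p under 0.05. A pseudocount of 1 understates changes of low genes. Each heart has its own number in the labels, and p values measure the spread between these hearts. No pair of hearts matched within sampling noise. The fit was also run on simulated reads of independent genes with changes larger than those of the members. That run therefore does not bear on the calls of members.

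The members and the lists were chosen with earlier results of these data known. The rule named called members, the 3 most abundant of each subunit, the 2 differences furthest above and below 0, members with paralogues, and called genes (otherwise 2 of lowest p) of each list. Some genes are counted but not reported by name here. Other members were named by role or for groups that did not overlap, after their values were seen. Other settings were another pseudocount (0.1) or filter, other scalings, voom on the recovered reads (98.4% of values whole, 229 genes called), a block, an atrial covariate, a length and GC trend, and hearts left out.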

Additional observations from a re-analysis of the deposited data

Results flagged for a closer look

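Within a group of 5 hearts, a heart that stands off from the other 4 by more than 0.71 of the group's range was looked for in each of the 84 members. This gave 11 flags in 168 groups (6.55%), where chance flags about 1 in 20, and 7 of them fell on genes named in the text. Rpl17, a protein at the exit tunnel, stood at 58.5 FPKM in A-PDK1KO 1, against 19.4 to 26.5 FPKM in the rest of its group. Rpl22 stood at 56.5 FPKM in A-PDK1KO 2, against 43.8 to 46.2 FPKM in the others of its group. Rpsa stood at 108 FPKM in A-PDK1KO 4, against 96.2 to 99.5 FPKM in the others, and still below every control heart. Rplp2 stood at 77.3 FPKM in A-PDK1KO 2, against 86.5 to 88.7 FPKM in the others. Rpl13 stood at 123 FPKM in control 2, against 107 to 112 FPKM in the other controls. Control 5 was low in Rps29, at 334.2 FPKM against 437 to 458 FPKM in the other controls, and in Rpl21, at 10.5 FPKM against 14.9 to 16.2 FPKM.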

How the results depend on the processing

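The median difference over the members was below 0 under every setting tried: -0.17 to -0.090 under planned settings (-0.090 with quantile normalization), -0.16 to -0.12 with 1 heart left out, and -0.10 without control 1 and control 2. The count of members called lower, 3 as reported, was 6 at a mean of at least 5 FPKM, 0 on the TPM scale, and 1 with median-of-ratios factors, with scaling that left out mitochondrial and haemoglobin genes, and with quantile normalization. It ran from 0 to 4 with 1 heart left out. Of all genes, 87 of 9987 were called lower as reported and 114 of 4602 at a mean of at least 5 FPKM. On the TPM scale 21 were, with median-of-ratios factors 105, without mitochondrial and haemoglobin genes 94, and with quantile normalization 95. Counts of members called higher were 0 in all of these fits. Settings added after seeing the data gave 0 called lower without control 1 and control 2, 0 in the 6 hearts with Myl7 under 10 FPKM, where only 3 hearts remained per group, and 3 without A-PDK1KO 2 and control 4. The large minus small gap was 0.015 to 0.051 under the other settings and 0.066 over the members that shared under 50% of their words. The causes were not tested. Over all genes, 208 were called as reported, 62 on the TPM scale, 314 with scaling that left out mitochondrial and haemoglobin genes, 57 to 150 with 1 heart left out, 57 without control 1 and control 2, and 4 in the 6 hearts. No setting moved the median of all genes by more than 0.1.

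Replicate numbers did not pair the hearts: deviations of same-numbered hearts correlated at -0.116 to 0.085. With the number as a replicate block 1 member was called lower (Rpsa) and Rps15 and Rps2 lost their calls.

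Small differences changed sign. Rpl3 was at 0.0080 with scaling that left out mitochondrial and haemoglobin genes, 0.040 with quantile normalization, 0.011 without control 1 and control 2, 0.023 in the 6 hearts and -0.037 to 0.011 with 1 heart left out. Rps29 was at 0.086 with quantile normalization, 0.028 with a length and GC trend removed, 0.048 without control 1 and control 2 and -0.11 to 0.0022 with 1 heart left out. Rpl22 was at 0.00089 with quantile normalization, 0.039 without control 1 and control 2 and -0.11 to 0.0070 with 1 heart left out. Rpl22l1 was at 0.0055 with the trend removed, 0.13 without control 1 and control 2 and -0.15 to 0.062 with 1 heart left out. Without control 1 and control 2 Rpl39 was at 0.056, and in the 6 hearts Rpl21 was at -0.033. Levels under about 10 FPKM rest on few reads, and genes under 1 FPKM in every heart are not analysed here.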

Other observations

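Rps27a, which encodes a fusion of ubiquitin and a small-subunit protein, had a spread within groups (CV 28.4%) that few members exceeded, and shares all of its coding words with other annotated genes. Rps27a stood at 36.9, 74.0, 48.2, 66.5 and 44.5 FPKM in A-PDK1KO hearts 1 to 5, against 57.1, 46.4, 57.3, 27.8 and 63.6 FPKM in control hearts 1 to 5. Rps27a-ps2 stood at 140.0, 86.3, 85.9, 58.5 and 109 FPKM in A-PDK1KO hearts 1 to 5, against 219.7, 182, 59.4, 164 and 25.4 FPKM in control hearts 1 to 5. In A-PDK1KO hearts the gene was lowest where the pseudogene was highest (A-PDK1KO 1), and in control hearts it was highest where the pseudogene was lowest (control 5). Control 1 was high in the pseudogene without being low in the gene.

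Among genes with -ps names Rpl17-ps10 had the highest mean FPKM, with 135 ± 14.9 FPKM in A-PDK1KO hearts and 148 ± 9.54 FPKM in control hearts (SD, n = 5 each), several times the level of Rpl17 itself, which shares all of its coding words with other annotated genes. Rpl17 averaged 29.3 ± 16.5 FPKM in A-PDK1KO hearts and 25.4 ± 4.13 FPKM in control hearts. Rps7-ps3 stood at 54.4 to 145 FPKM in A-PDK1KO hearts and 74.1 to 163 FPKM in control hearts, where Rps7 stood at 61.0 to 75.7 FPKM in A-PDK1KO hearts and 64.8 to 105 FPKM in control hearts.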
